A study of Mus musculus with 8 samples.

Results

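Genes of digestive and secretory proteins were followed in RNA of sorted mouse colon cells, 10 of the 22180 genes measured. They are the brush border peptidase genes Mep1a, Mep1b, Dpep1, Anpep and Dpp4, the esterase genes Aadac and Ces2a, and the genes Sycn, Plbd1 and Ggh, whose proteins lie in granules or lysosomes or are secreted. They were chosen by function and with their log2 differences between donor types on these same arrays already known. Those differences are thus given below as a description. Where the 10 are counted against a p threshold, the counts are description too and not a test. All 10 were represented, each by exactly 1 probe set with a single gene symbol.

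All recipients were female C57BL/6 mice conditioned for 5 days with busulfan and cyclophosphamide and then given bone marrow and T cells. Donors were LP/J mice in the allogeneic group (n = 4) and C57BL/6 mice in the syngeneic group (n = 4), so every animal had been conditioned and transplanted and no untreated mouse is among the groups. Colon was taken 2 days after transplantation, early in graft-versus-host disease, and endothelial cells, positive for CD31 and negative for CD45 and CD11b, were sorted from the digested tissue. RNA of each sorted sample was measured on 1 Affymetrix Mouse Gene 2.0 array, and values are normalized log2 signals (1.39 to 13.9 over all arrays). The number of arrays limits the precision.

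The brush border is the carpet of microvilli on the free surface of absorptive gut epithelium. Peptidases anchored in its membrane trim peptides at the cell surface, esterases in the endoplasmic reticulum beneath it cleave lipids and drugs, and lysosomal hydrolases finish the breakdown inside the cell. In the colon these enzymes are made chiefly by differentiated epithelial cells, although Anpep, Dpp4 and Plbd1 are also known from stromal or immune cells. They are not genes by which endothelium is recognised.

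The sorted samples held signal of both cell types. The endothelial sort marker Pecam1 lay between 9.76 and 11.58 on the 8 arrays, and the epithelial adhesion gene Epcam between 8.93 and 9.51. The mean over 15 endothelial genes was highest on syngeneic arrays 3 (9.22) and 4 (10.11), which stood apart, against 7.84 to 8.57 on the other 6 arrays. In all 15 the allogeneic mean was the lower one, with a median log2 difference of -0.65, and none passed the test (limma, 5 at an unadjusted p below 0.05). The mean over 14 colon epithelial genes was lowest on the same syngeneic arrays 3 (10.44) and 4 (10.16) and lay between 10.67 and 10.94 on the others. In 13 of the 14 the allogeneic mean was the higher one, with a median log2 difference of 0.18. None passed the test (limma, 4 at an unadjusted p below 0.05). Their log2 differences ran from -0.05 in Lypd8 to 1.53 in Aqp8. In such bulk samples fewer cells of a type and less RNA per cell cannot be told apart.

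Promoter sequences of 3 of the genes show how unlike their start regions are. Mep1a and Sycn are shown because each was the other's nearest gene across the arrays, and Anpep because it is the 1 gene of the 10 with a lower allogeneic mean. Each sequence runs 5′ to 3′ from 250 bases before to 50 bases after the annotated start (RefSeq, build GRCm38.p6), and capitals mark CG dinucleotides. The Mep1a window is chr17:43502724-43503023 on the minus strand, that of Sycn chr7:28540635-28540934 on the plus strand and that of Anpep chr7:79848161-79848460 on the minus strand.
Mep1a: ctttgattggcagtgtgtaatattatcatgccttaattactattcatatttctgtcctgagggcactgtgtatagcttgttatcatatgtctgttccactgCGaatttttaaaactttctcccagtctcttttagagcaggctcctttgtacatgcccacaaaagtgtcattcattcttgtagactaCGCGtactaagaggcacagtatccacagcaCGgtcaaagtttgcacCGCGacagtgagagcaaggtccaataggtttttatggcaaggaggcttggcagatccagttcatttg
Sycn: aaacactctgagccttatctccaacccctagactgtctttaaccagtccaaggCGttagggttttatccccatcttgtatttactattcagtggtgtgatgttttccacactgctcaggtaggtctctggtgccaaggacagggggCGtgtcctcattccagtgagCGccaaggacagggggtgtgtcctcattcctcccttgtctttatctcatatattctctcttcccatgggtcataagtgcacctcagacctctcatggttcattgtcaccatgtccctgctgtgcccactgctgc
Anpep: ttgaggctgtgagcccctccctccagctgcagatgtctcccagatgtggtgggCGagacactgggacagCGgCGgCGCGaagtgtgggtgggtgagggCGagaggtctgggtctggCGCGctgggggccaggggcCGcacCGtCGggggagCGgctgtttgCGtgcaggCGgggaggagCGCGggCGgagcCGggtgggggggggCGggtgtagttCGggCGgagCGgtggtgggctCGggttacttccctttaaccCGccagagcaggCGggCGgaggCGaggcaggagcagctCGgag

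The Anpep window held 28 CG dinucleotides and a GC content of 72.3%. The windows of Mep1a (6 and 42.3%) and Sycn (3 and 50.3%) were poorer in both. The median over 32851 promoter windows was 7 CG dinucleotides and 52.7%, and 14.2% of windows held at least as many CG dinucleotides as that of Anpep. The Sycn window repeats the 15 bases gccaaggacaggggg exactly, starting 119 and 83 bases before the start site, and 2.97% of all windows hold an exact repeat at least that long.

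Windows were found for 8 of the 10 genes and searched on both strands for core motifs of intestinal regulators and the TATA box. The HNF4 core CAAAGTNCA was in none of the 8 (1.41% of all windows) and the HNF1 core GTTAAT in none (7.10%). The CDX core TTTATNG was in 2 of 8 (10.9% of all windows), once in Mep1a from base 14 after the start and once in Dpp4. The GATA core AGATAA was in 2 of 8 (11.2%), at 2 places in Sycn and once in Dpp4. TATAAA was in 1 of 8 (13.6%), in Dpp4, where it overlaps the CDX match. These are matches of letters and not binding sites.

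The meprins Mep1a and Mep1b encode the alpha and beta subunits of a zinc metalloprotease, of which the beta subunit holds the enzyme in the membrane. Mep1a measured 7.85, 7.73, 7.10 and 8.27 on allogeneic arrays 1 to 4 and 6.61, 6.17, 5.26 and 5.67 on syngeneic arrays 1 to 4. Every allogeneic value lay above every syngeneic one. The group means were 7.74 ± 0.48 and 5.93 ± 0.59 (SD, n = 4 each), a log2 difference of 1.81 ± 0.31 (SE), or 3.51-fold. Mep1b measured 6.95, 7.13, 6.88 and 7.27 on the allogeneic and 6.88, 6.81, 6.51 and 6.19 on the syngeneic arrays. The groups touch at 6.88, where allogeneic array 3 and syngeneic array 1 meet. Its log2 difference was 0.46 ± 0.18 (SE), or 1.37-fold.

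Dpep1 encodes a membrane dipeptidase that also splits a leukotriene. It measured 10.85, 10.60, 10.73 and 11.09 on the allogeneic and 9.55, 9.60, 9.03 and 8.87 on the syngeneic arrays. A gap of 1.00 on the log2 scale separated the groups. The log2 difference was 1.55 ± 0.18 (SE), or 2.93-fold, with the smallest SE of the 10 genes.

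Dpp4, also known as CD26, cuts dipeptides from peptide ends and inactivates incretin hormones. It measured 8.19, 7.58, 7.65 and 7.54 on the allogeneic and 7.29, 6.95, 6.73 and 6.09 on the syngeneic arrays. The groups did not overlap, and allogeneic array 1 stood above the other 3. The log2 difference was 0.97 ± 0.25 (SE), or 1.96-fold.

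Anpep encodes aminopeptidase N (CD13), which takes single residues from peptide ends and is also found on myeloid cells and pericytes. It measured 5.99, 6.00, 6.34 and 6.60 on the allogeneic and 6.27, 7.03, 6.23 and 6.70 on the syngeneic arrays. The groups overlapped, and syngeneic array 2 was the highest. The log2 difference was -0.32 ± 0.21 (SE), the only one of the 10 below 0. It was -0.17 without syngeneic array 2 and -0.04 without the 3 arrays with the highest pancreatic signal described below.

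Aadac, arylacetamide deacetylase, is an esterase of the endoplasmic reticulum that acts on lipids and drugs. It measured 7.55, 6.53, 7.30 and 8.02 on the allogeneic and 5.36, 5.59, 5.40 and 4.16 on the syngeneic arrays. The groups lay 0.94 apart, and syngeneic array 4 lay far below the other 3. The log2 difference of 2.22 ± 0.36 (SE), or 4.67-fold, was the largest of the 10.

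Ces2a encodes a carboxylesterase that also hydrolyses lipid esters and prodrugs. It measured 7.92, 8.85, 7.98 and 9.10 on the allogeneic and 8.18, 8.54, 7.75 and 6.92 on the syngeneic arrays. The groups overlapped, and the log2 difference of 0.62 ± 0.36 (SE) was 0.31 without syngeneic array 4 and 0.10 without syngeneic arrays 3 and 4. Carboxylesterase genes are so alike in sequence within the Ces1 and Ces2 families that probes of 1 may read another, and their values are uncertain in that respect.

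Sycn encodes syncollin, a protein of the zymogen granule membrane best known from the exocrine pancreas. It measured 10.16, 10.24, 9.59 and 10.73 on the allogeneic and 8.38, 8.52, 7.70 and 8.21 on the syngeneic arrays. The gap between the groups was 1.06, the widest of the 10 genes. The log2 difference was 1.98 ± 0.24 (SE), or 3.93-fold.

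Plbd1, a phospholipase B-like protein of granules and lysosomes, measured 8.51, 8.95, 9.001 and 9.25 on the allogeneic and 7.68, 7.40, 7.36 and 6.58 on the syngeneic arrays. The groups did not overlap, and the log2 difference was 1.67 ± 0.24 (SE), or 3.19-fold. Ggh encodes gamma-glutamyl hydrolase, a lysosomal and secreted enzyme that shortens the glutamate tail of folates. It measured 9.45, 9.50, 9.60 and 10.13 on the allogeneic and 8.20, 8.60, 7.88 and 8.27 on the syngeneic arrays. These did not overlap either, and the log2 difference was 1.44 ± 0.19 (SE), or 2.71-fold.

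**Figure D1:**
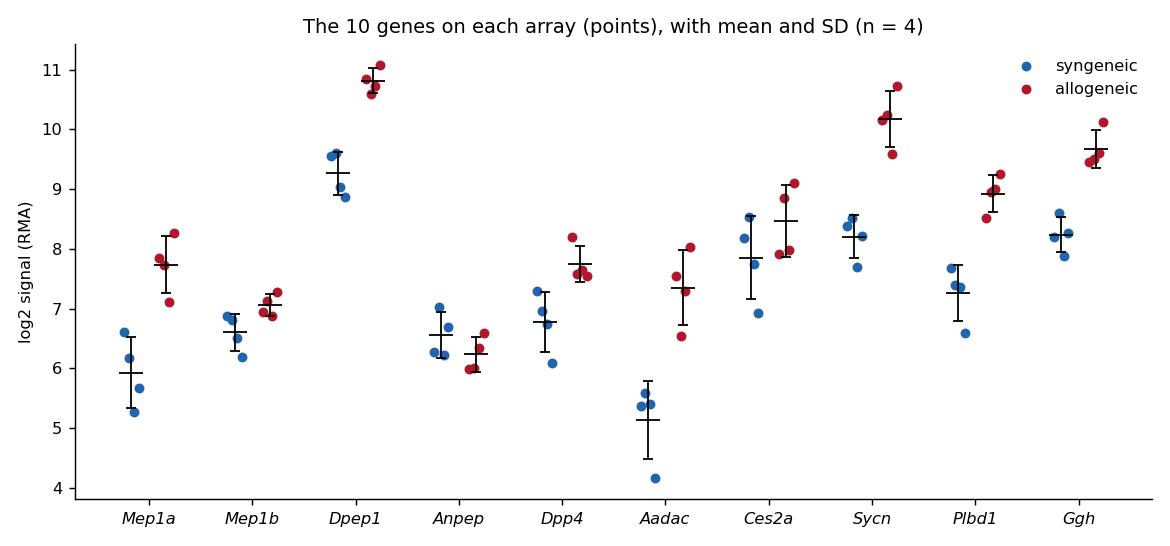
The plot shows the log2 signal of the 10 genes on the 4 syngeneic (blue) and 4 allogeneic (red) arrays, each point 1 array, with the mean and SD of each group in black. Red and blue points do not overlap in 8 of the 10 genes, though they touch in Mep1b, and overlap in Anpep and Ces2a.

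Over the 10 genes, the groups did not overlap in 8, all with higher allogeneic values, against 5.18% of all genes (3.36% were apart with lower values). Among the 8 is Mep1b, whose groups touch at 6.88. A total of 6 genes (Mep1a, Dpep1, Aadac, Sycn, Plbd1 and Ggh) lay past the threshold of limma, an adjusted p below 0.05, in the higher direction, against 0.356% of all genes. The same 6 were at least 2-fold higher, against 0.631% of all genes. The median log2 difference was 1.49 over the 10 genes and -0.01 over all genes. The list was drawn up with this contrast in view, so these counts describe it and nothing is read from them. The count of 6 past the threshold fell to 0 in limma without allogeneic array 1 or without syngeneic array 3 (8 and 7 at an unadjusted p below 0.05), to 3 without allogeneic array 4, and to 3 without syngeneic arrays 3 and 4 together. Over all genes the count of higher calls fell as well, from 79 to 4, 4, 13 and 26 in these fits.

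Within the groups the highest or lowest values of the genes often fell on the same arrays, though not in 1 common order. Of the 10 genes, 9 were highest among the allogeneic arrays on array 4, and the remaining 1, Dpp4, on array 1. The lowest allogeneic value was spread, on array 1 in 4 genes, array 2 in 2, array 3 in 3 and array 4 in 1. Among the syngeneic arrays, all 10 were lowest on array 3 (4 genes) or array 4 (6 genes). The share of all genes with such extremes was not counted. Averaged over the 10 genes after centring each on its mean, the arrays scored 0.54, 0.51, 0.42 and 1.00 in the allogeneic group and -0.36, -0.28, -0.81 and -1.03 in the syngeneic group. The lowest 2 scores are those of the arrays with the most endothelial and the least epithelial signal. The part of cell content in the differences was not tested beyond the fits given next.

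Epcam marks epithelium as a whole and the keratin gene Krt20 its differentiated upper cells, so each was set beside the 10 genes. Epcam measured 9.47, 9.50, 9.50 and 9.51 on the allogeneic and 9.30, 9.44, 9.27 and 8.93 on the syngeneic arrays. The groups did not overlap, and the log2 difference of 0.26 ± 0.12 (SE) did not pass the test (limma adjusted p = 0.388). It was 0.16 without syngeneic array 4 and 0.13 without syngeneic arrays 3 and 4. Krt20 measured 10.88, 10.57, 10.88 and 10.76 on the allogeneic and 10.88, 11.01, 10.41 and 10.14 on the syngeneic arrays. These groups overlapped, with a log2 difference of 0.16 ± 0.18 (SE, limma adjusted p = 0.757) that turned to -0.17 without syngeneic arrays 3 and 4. Both markers were lowest on syngeneic array 4, as were 6 of the 10 genes.

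**Figure D2:**
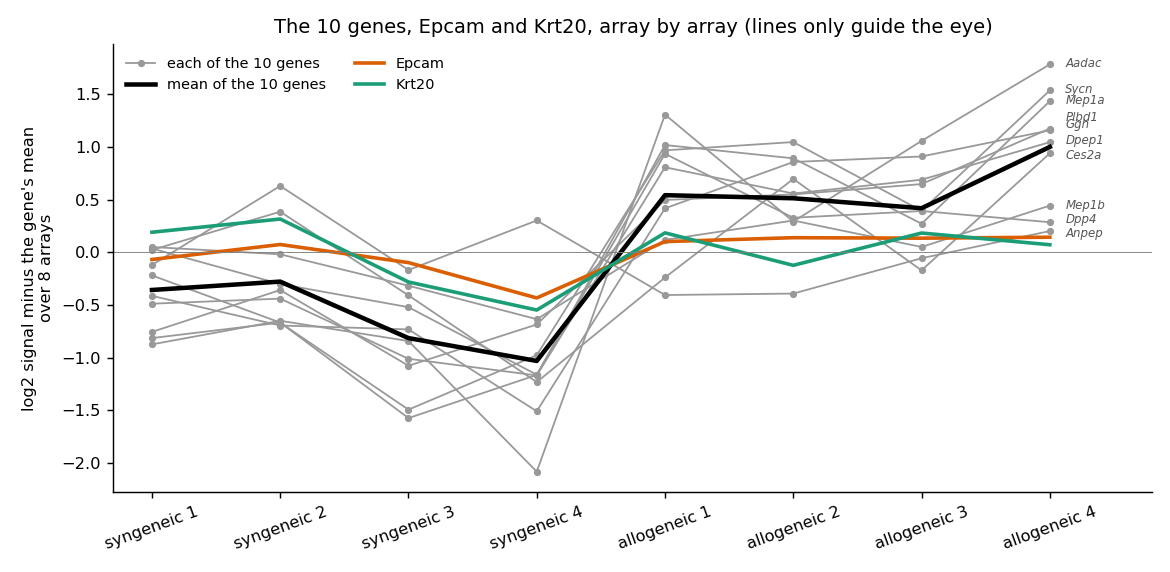
Each line gives a gene's log2 signal on the 8 arrays minus its own mean, for the 10 genes (grey), their mean (black), Epcam (orange) and Krt20 (green). The black line spans -1.03 to 1.00, while the orange and green lines stay much closer to 0.

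As the difference from Epcam or Krt20 on the same array, 7 of the 10 genes had groups that did not overlap, and these were the same 7 for both markers. They were Mep1a, Dpep1, Dpp4, Aadac, Sycn, Plbd1 and Ggh. The share of all genes apart in this way was not counted. The 10 were chosen with the contrast known and the markers differed by only 0.26 and 0.16, so nothing is read from the count. Only differences between arrays have a meaning on this scale, since the signals of unlike probes do not share a zero. Relative to Krt20, Dpep1 stood at -0.03, 0.03, -0.15 and 0.32 on the allogeneic and -1.33, -1.41, -1.38 and -1.27 on the syngeneic arrays. The syngeneic SD of Dpep1 thus went from 0.37 to 0.06 when taken against Krt20, and the difference between the groups was 1.39. Relative to Epcam it was 1.29.

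The syngeneic SD also fell against Krt20 in Mep1a, Mep1b, Dpp4, Aadac, Ces2a and Plbd1, for example from 0.51 to 0.24 in Dpp4, but hardly in Sycn (0.36 and 0.34). It rose in Ggh (0.29 to 0.35) and Anpep (0.38 to 0.48). The allogeneic SD rose against Krt20 in Mep1a, Mep1b, Ces2a, Sycn, Plbd1 and Ggh, for example from 0.18 to 0.29 in Mep1b. It fell in Dpep1, Dpp4 and Aadac and hardly changed in Anpep. Relative to Krt20, Sycn stood at -0.72, -0.33, -1.29 and -0.04 on the allogeneic and -2.51, -2.49, -2.71 and -1.93 on the syngeneic arrays, a difference of 1.82. Aadac had a difference of 2.06 relative to Krt20 and 1.96 relative to Epcam. For Mep1b the differences were 0.30 and 0.20, and the groups overlapped in both. For Anpep they were -0.48 and -0.59.

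The same question was put to the fit over all genes, with the marker as a covariate. With Krt20 in the model the log2 differences were 1.41 ± 0.11 (SE) for Dpep1, 1.99 ± 0.29 for Aadac and 1.92 ± 0.25 for Sycn. Dpp4 stood at 0.80, Mep1b at 0.37 and Ces2a at 0.43, against 0.97, 0.46 and 0.62 without a covariate. Over all genes 104 were then higher, against 79 without a covariate, and 6 of the 10 lay past the threshold. With Epcam in the model 0 did in limma, and 6 were higher at an unadjusted p below 0.05. Over all genes 4 were higher in that fit. The differences then were 1.86 ± 0.34 for Sycn and 1.32 ± 0.26 for Ggh, close to those without a covariate. They were 1.18 ± 0.19 for Dpep1, 1.46 ± 0.39 for Aadac and 1.15 ± 0.24 for Plbd1. Dpp4 stood at 0.49 ± 0.28, Mep1b at 0.11 ± 0.20 and Ces2a at -0.25 ± 0.34, where the direction had turned. Epcam hardly varied among the allogeneic arrays (SD 0.019, against 0.215 among the syngeneic ones), so its slope was set mainly by syngeneic arrays and the covariate overlaps with the group. Arrays of each group number 4 and the groups are apart, so a correlation of the 10 genes with either marker was not computed.

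**Figure D3:**
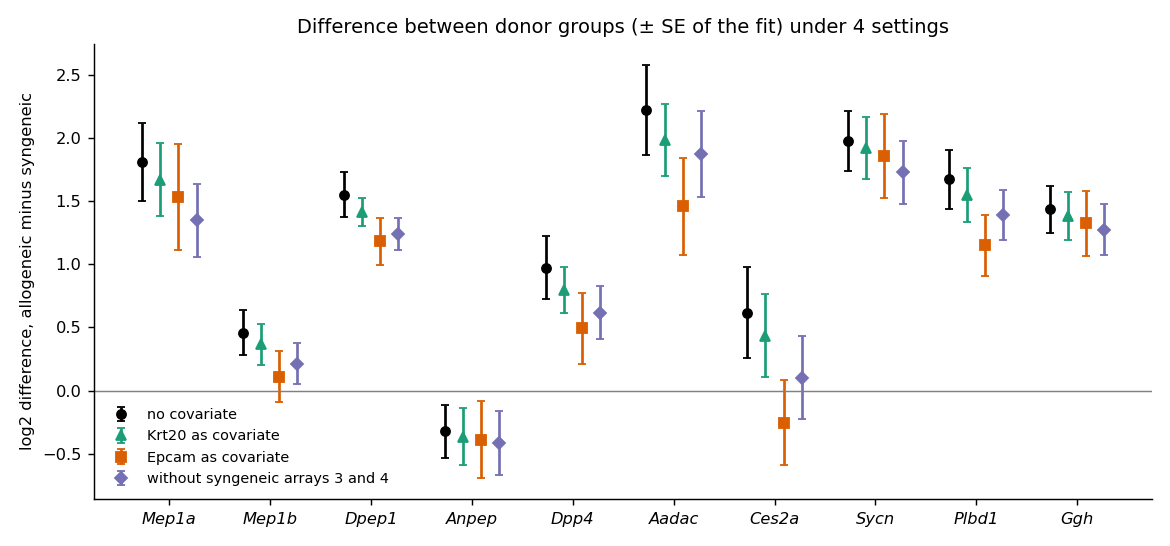
The plot gives the log2 difference between allogeneic and syngeneic arrays for each gene, with the SE of the fit as bars, without a covariate, with Krt20 or Epcam as covariate, and without syngeneic arrays 3 and 4. With Epcam in the model Anpep, Ggh and Sycn moved least, and Ces2a crossed 0.

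Over all genes, those with the profile nearest to the mean of the 10 were Aldh1a7, an aldehyde dehydrogenase (root mean square distance 0.11 on the log2 scale over the 8 arrays), Abat, the GABA transaminase (0.13), Hpgd, which inactivates prostaglandins (0.14), the nucleotide diphosphatase gene Entpd5 (0.16) and the carbonic anhydrase gene Car2 (0.16). For single genes, Sycn and Mep1a were each other's nearest at 0.24. Car2 was nearest to Dpep1 (0.12), Ank, a transporter of pyrophosphate, to Ggh (0.08), Itih5 to Plbd1 (0.20), Cyp2w1 to Dpp4 (0.14) and Hao2 to Aadac (0.38). Dnmbp was nearest to Mep1b (0.06), Slc51a to Ces2a (0.18) and Krt90 to Anpep (0.10).

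Related genes were then examined in 8 lists drawn up by function, with 116 distinct genes measured besides the 10. In limma 3 of the 116 rose (2.59%, against 0.356% of all genes) and 0 fell, against 0.113% of all genes. At an unadjusted p below 0.05 in limma, 24 were higher and 5 lower, together 25%, against 13.2% of all genes. The median log2 difference was 0.16 over the 116 and -0.01 over all genes. The 3 that rose were lost in limma with Epcam in the model (11 higher at an unadjusted p below 0.05), and the count was also 0 in the 6 fits that left out any 1 allogeneic array or syngeneic array 1 or 3 (21 to 33 higher at an unadjusted p below 0.05). Over all genes 4 were higher with Epcam in the model and 4 to 32 in these 6 fits, against 79.

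Among the other brush border peptidases 0 of 12 passed in limma, 1 at an unadjusted p below 0.05, and their median difference was 0.01. Cpm, a carboxypeptidase, was at 1.15 ± 0.39 (SE, limma adjusted p = 0.227). Ace, the angiotensin-converting enzyme, which endothelium also makes, was at -0.68 ± 0.32 (limma adjusted p = 0.404). It was highest on syngeneic arrays 3 (10.13) and 4 (10.65), like the endothelial genes. The glycosidases and phosphatases of the brush border gave 0 of 13 in limma, 3 at an unadjusted p below 0.05, and a median of 0.01. The intestinal alkaline phosphatase gene Alpi was at 0.87 ± 0.29 (limma adjusted p = 0.219) and Asah2, a neutral ceramidase, at 0.73 ± 0.26 (limma adjusted p = 0.26).

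Of 20 other carboxylesterases and relatives of Aadac 0 passed in limma and 4 had an unadjusted p below 0.05, with a median of 0.18. Ces1e was at 1.22 ± 0.24 (SE, limma adjusted p = 0.0616), with allogeneic values of 7.69 to 8.29 above syngeneic values of 5.99 to 7.12. Nceh1, a neutral cholesterol ester hydrolase, was at 0.42 ± 0.12 (limma adjusted p = 0.157). Of 17 genes of the microvillus scaffold, on which the peptidases sit, 16 had a higher allogeneic mean, with a median of 0.35, and 0 passed in limma while 6 had an unadjusted p below 0.05. Tmigd1, an adhesion protein of the brush border, was at 0.86 ± 0.21 (limma adjusted p = 0.107) and Calml4, a light chain of its myosin, at 0.62 ± 0.16 (limma adjusted p = 0.125).

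Carriers that take up the products of peptidases held 2 of the 3 genes that rose. Of 13 peptide and amino acid transporters, Slc6a14 and Slc3a1 rose and 0 fell, with 2 lower at an unadjusted p below 0.05 and a median of 0.13. Slc6a14, a carrier of neutral and cationic amino acids, measured 9.32, 9.42, 9.33 and 9.70 on the allogeneic and 8.41, 8.46, 7.84 and 7.03 on the syngeneic arrays. Its log2 difference was 1.51 ± 0.28 (SE, limma adjusted p = 0.0493). Slc3a1, the heavy chain of the cystine carrier, measured 8.57, 8.42, 8.32 and 8.65 against 7.79, 7.88, 7.45 and 7.37. Its log2 difference was 0.87 ± 0.15 (limma adjusted p = 0.0422). With Epcam in the model the differences were 0.73 and 0.62 and neither passed (limma adjusted p = 0.276 and 0.345). With Krt20 in the model both passed (0.0157 and 0.033).

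Among 15 lysosomal genes, the kin of Plbd1 and Ggh by location, Ctsh rose and 0 fell, with 1 lower at an unadjusted p below 0.05 and a median of 0.12. Ctsh, the aminopeptidase cathepsin H, measured 9.54, 9.47, 9.55 and 9.48 on the allogeneic and 8.71, 9.03, 8.40 and 8.23 on the syngeneic arrays. Its log2 difference was 0.92 ± 0.16 (SE, limma adjusted p = 0.0435), and 0.55 with Epcam in the model (limma adjusted p = 0.325). Of 8 genes of folate uptake and polyglutamation, the pathway that Ggh opposes, 0 passed in limma and 2 had an unadjusted p below 0.05, 1 in each direction. Shmt2, a mitochondrial serine hydroxymethyltransferase, was at -0.64 ± 0.17 (limma adjusted p = 0.139) and the folate carrier gene Slc46a1 at 0.71 ± 0.23 (limma adjusted p = 0.22).

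Of 18 intestinal transcription factors 0 passed in limma, 3 were higher and 1 lower at an unadjusted p below 0.05, and the median was 0.12. Nr1i2, the xenobiotic receptor PXR, was at 0.74 ± 0.14 (SE, limma adjusted p = 0.0545), with 8.35 to 8.63 on the allogeneic and 7.49 to 7.97 on the syngeneic arrays. Klf5, a factor of crypt epithelium, was at 0.41 ± 0.15 (limma adjusted p = 0.255).

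**Figure D4:**
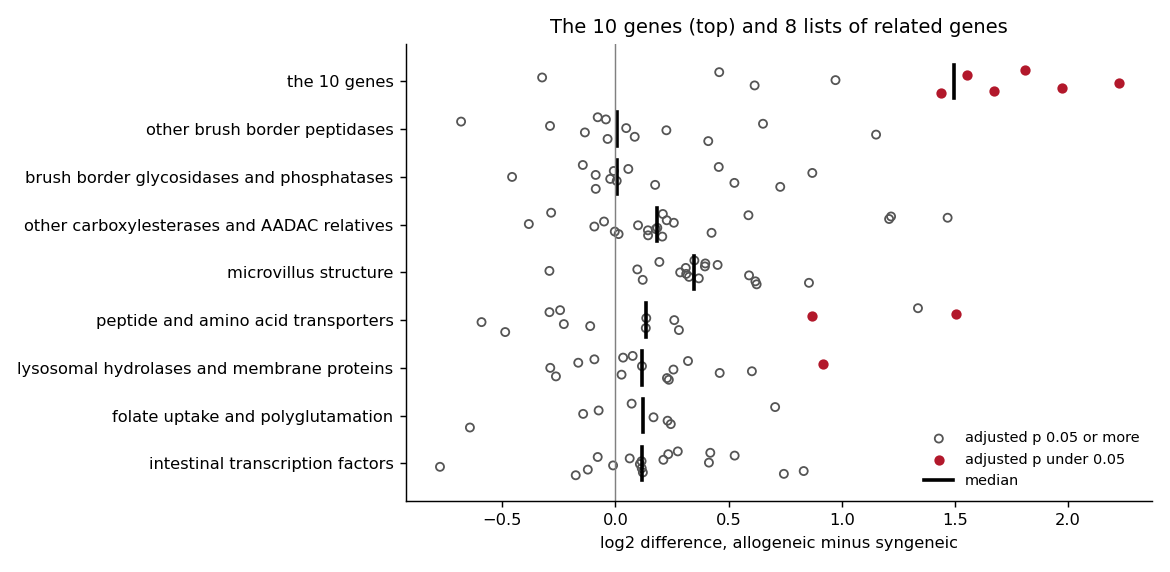
Each point is 1 gene, placed by its log2 difference between allogeneic and syngeneic arrays, filled where limma's adjusted p was below 0.05, with the median of each list as a bar. The medians of the 8 lists of related genes lie between 0.01 and 0.35, and the top row shows the 10 genes chosen with these differences known.

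Sycn is a gene of the pancreas, which lies close to the colon, so 11 genes of pancreatic acinar cells were read on the same arrays. The chymotrypsinogen gene Ctrb1 measured 7.72, 10.99, 5.45 and 5.36 on the allogeneic and 5.38, 5.68, 5.44 and 10.40 on the syngeneic arrays. It was thus high on allogeneic array 2 and syngeneic array 4, intermediate on allogeneic array 1 and low on the other 5. The carboxypeptidase gene Cpa1, picked after its values were seen, had the same pattern, with 6.26, 9.59 and 8.57 on these 3 arrays and 4.05 to 4.30 on the others. The mean over the list was 7.997 on allogeneic array 2, 7.52 on syngeneic array 4 and 5.86 on allogeneic array 1, against 4.69 to 4.86 elsewhere. Trypsinogen gene Prss2 was highest on allogeneic array 2 (8.49) and syngeneic array 4 (7.95). In limma 0 of the 11 passed, and 1 had an unadjusted p below 0.05.

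The elastase gene Cela1, also on the list and picked after its values were seen, differed from these. It was 8.60 to 9.90 on the allogeneic arrays, 9.06 on syngeneic array 4 and 6.92 to 7.49 on syngeneic arrays 1 to 3. Sycn did not follow the pattern of Ctrb1, Cpa1 and Prss2. On syngeneic array 4, with high pancreatic signal, it was 8.21, within the range of the other syngeneic arrays (7.70 to 8.52). On allogeneic array 4, with low pancreatic signal, it was highest of all (10.73). In a fit without the 3 arrays with the highest pancreatic signal, chosen after the data were seen, its log2 difference was 1.96 ± 0.35 (SE), against 1.98 with all arrays. In that smaller fit 7 genes were higher over all genes, against 79 with all arrays. Of the 10 genes 2, Aadac and Plbd1, lay past the threshold in place of 6, and Sycn did not. The part of pancreatic cells in the difference of Sycn was not tested.

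**Figure D5:**
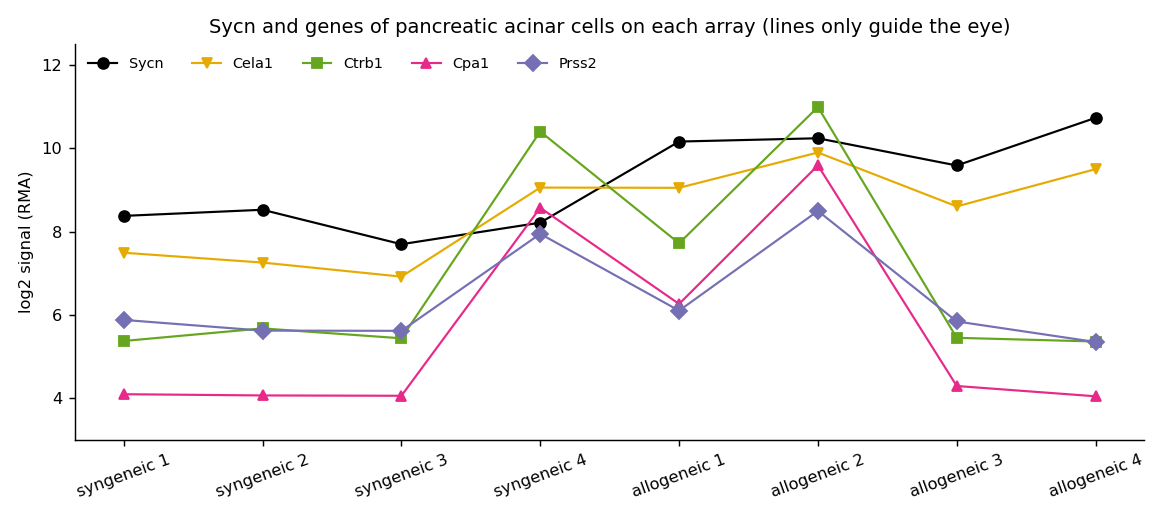
Lines give the log2 signal of Sycn (black) and of 4 genes of pancreatic acinar cells on the 8 arrays. Ctrb1, Cpa1 and Prss2 peak on syngeneic array 4 and allogeneic array 2, while Sycn is high on all 4 allogeneic arrays and Cela1 on these and on syngeneic array 4.

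Markers of other cells were read beside the genes that such cells can make. For myeloid cells, which can make Anpep and Plbd1, the mean over 11 genes was 5.09 to 5.51 on the allogeneic and 5.40 to 5.67 on the syngeneic arrays. Itgam, the CD11b gene, was 5.13 to 5.44 and 4.99 to 5.92, and the growth factor receptor gene Csf1r 5.24 to 5.96 and 5.29 to 5.97. In this list 1 of 11 genes, S100a8, fell in limma (log2 difference -1.94), from 4.75 to 5.25 on the syngeneic to 2.59 to 3.41 on the allogeneic arrays. At an unadjusted p below 0.05 in limma 2 of the 11 were lower and 0 higher. The median log2 difference was -0.14, and 4 of the 11 had a higher allogeneic mean. For T cells, which can make Dpp4, the mean over 9 genes was 4.22 to 4.70 and 4.19 to 4.45, with Cd3e at 4.83 to 5.29 and 4.41 to 5.06, and 0 passed in limma, adjusted or not. The pan-leukocyte gene Ptprc was 4.42 to 6.18 and 4.61 to 5.76. For fibroblasts the mean over 6 genes was 7.45 to 8.51 and 6.96 to 7.87, highest on allogeneic array 4, as were 8 of the 10 genes over all arrays. In limma 0 of the 6 passed and 3 were higher at an unadjusted p below 0.05, with a median log2 difference of 0.36. The collagen genes Col1a1 and Col1a2 were at 0.21 and 0.06. Pdgfra, Lum, Dcn and the collagen gene Col3a1, named after their values were seen, were at 1.03, 0.83, 0.51 and -0.12. For goblet cells, which secrete granules of mucin, the mean over 9 genes was 9.64 to 10.08 and 8.96 to 9.94, lowest on syngeneic array 4, with Muc2 at 12.58 to 12.90 and 12.30 to 13.07. The goblet cell gene Clca1 was 9.91 to 11.20 and 7.26 to 9.77, a log2 difference of 1.57 ± 0.51 (SE, limma adjusted p = 0.217). Its 7.26 was on syngeneic array 4, far below the other syngeneic arrays (9.50 to 9.77). In limma 0 of the 9 passed and 1, Clca1, had an unadjusted p below 0.05. The median log2 difference of the 9 was 0.13, with 6 genes higher and 3 lower in the allogeneic mean. The part of these cells in the differences was not tested.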

How the data were processed

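Per the submitters' processing notes, the authors ran RMA in Affymetrix Expression Console (1.4.1), and the deposited values are on the log2 scale, 1 per probe set. This method subtracts background, equalizes quantiles across arrays and merges the probes of a set. Their annotation and level of summary are not stated in the sources used here, and neither detection calls nor scan dates were used. Per the labels' protocols, targets were made from 700 pg of RNA with an amplifying kit. Of 41345 probe sets, 23521 had exactly 1 gene symbol in the platform annotation, and the brightest was kept per gene (22180 genes). Differences are allogeneic minus syngeneic from a linear model with limma (version 3.58.1, R 4.3.3), with moderated variances and an intensity trend, with Benjamini-Hochberg adjustment over all genes and a threshold of 0.05. The script was tested on simulated data. Groups came from the sample titles. The labels call the arrays biological replicates.

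The 10 genes, the lists and the tests were chosen with earlier results of these data known. Named were the 10, Epcam, Krt20, in each related list up to 3 genes with the smallest p among those past the threshold or else the 2 with the smallest p, the first 2 of each marker list, and the nearest genes by profile. S100a8, Cpa1, Cela1, Pdgfra, Lum, Dcn, Col3a1, Aqp8 and Lypd8 were picked after their values were seen. Alternatives covered the variance prior, a dim-gene filter, scaling, weights, averaged probe sets, a block for the replicate number, covariates and arrays left out.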

Additional observations from a re-analysis of the deposited data

Results flagged for a closer look

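Within each group of 4 arrays, the highest or lowest array was compared with the rest for the named genes (102 groups), and 9 stood apart by Dixon's criterion, where chance alone gives about 1 in 20. On syngeneic array 4, Aadac was 4.16 (others 5.36 to 5.59), Klf5 10.15 (10.77 to 10.84) and the goblet cell gene Clca1 7.26 (9.50 to 9.77). On the same array the pancreatic genes Prss2 (7.95, others 5.62 to 5.88) and Ctrb1 (10.40, others 5.38 to 5.68) were high. On allogeneic array 4, the collagen gene Col1a1 was 8.75 (others 7.90 to 7.92), Aldh1a7 8.05 (7.29 to 7.39) and the oxidase gene Hao2 10.13 (9.57 to 9.65). On allogeneic array 1, Dpp4 was 8.19 (others 7.54 to 7.65).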

How the results depend on the processing

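The differences of Mep1a, Mep1b, Dpep1, Dpp4, Aadac, Sycn, Plbd1 and Ggh stayed above 0 and that of Anpep below 0 in all 21 alternatives, while Ces2a fell below 0 in 2, with Epcam (-0.25) and with the epithelial list (-0.13) as covariate. Over all genes 79 were higher and 25 lower. The counts were 138 and 55 among genes above the median gene, 46 higher with quantile scaling, 39 lower with array weights, 4 and 1 with Epcam, 4 and 3 with the epithelial list and 19 and 9 with the endothelial list as covariate. They were 26 and 12 without syngeneic arrays 3 and 4, and 7 and 3 without the 3 arrays with the highest pancreatic signal, chosen after the data were seen. Leaving out 1 array gave 4 to 145 higher and 4 to 35 lower. Of the 10 genes, in place of 6, 0 lay past the threshold with Epcam, 1 with the epithelial list, 3 with the endothelial list, 3 without syngeneic arrays 3 and 4, 2 without the 3 pancreatic arrays and 0 to 6 with 1 array left out. Of the related genes, in place of 3, 6 rose among genes above the median gene, 5 with array weights, 1 without syngeneic arrays 3 and 4 and 0 to 4 with 1 array left out. That count was 0 with quantile scaling, Epcam, the epithelial or the endothelial list, or without the pancreatic arrays, and 0 fell in any setting. Krt20 turned to -0.27, -0.30 and -0.12 with Epcam, the epithelial and the endothelial list, and to -0.17 without syngeneic arrays 3 and 4. Ace turned to 0.14 with Epcam and 0.036 with the epithelial list. The causes were not tested.

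With the replicate number as a block, 40 genes were higher and 28 lower, 4 of the 10 genes lay past the threshold, and 1 related gene rose. Deviations of same-numbered arrays correlated between -0.10 and 0.10, which gives no sign of pairing by number but cannot exclude it. Without detection calls, low signals cannot be told from background.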

Other observations

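By array, the elastase gene Cela1 measured 9.05, 9.90, 8.60 and 9.50 on the allogeneic and 7.49, 7.26, 6.92 and 9.06 on the syngeneic arrays, so that only syngeneic array 4, with high pancreatic signal, reached the allogeneic range. Its log2 difference of 1.58 ± 0.42 (SE) did not pass (limma adjusted p = 0.138).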
